A study of Mus musculus with 2 samples.

Results

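Cytosolic ribosomal protein genes were followed by single-cell RNASeq across the cells of the ileal epithelium, in WT and in Tipe0-/- mice. Members were chosen by symbol and level. The symbol had to begin with Rpl or Rps followed by a digit, or with Rplp, or be Rpsa, and symbols with Rps6k or -ps were left out. A member also needed at least 50 unique molecular identifiers (UMIs, which mark single captured mRNA molecules) in both libraries together. Of 87 rows that met the symbol rule, 84 were members, among 27998 rows in all and 11665 rows with at least 50 UMIs. The summed UMIs that set the floor are a description here and support nothing. No member lay close to the floor, since the lowest inside it were Rpl7l1 with 2389 UMIs, Rps19bp1 with 2918 and Rpl6l with 3996. The rows outside were Rpl39l with 1 UMI, and Rpl3l and Rpl10l with 0.

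Assigned by symbol, 33 members belong to the small and 49 to the large subunit. The symbol rule also took in Rps19bp1, a protein that binds Rps19, and Rpl7l1, a relative of Rpl7. Neither is a standard ribosomal protein, and both stood at the bottom of the range of levels. Rpl6l, counted among the 49 by its symbol, is annotated as a processed pseudogene without a coding sequence. Rps27rt is annotated as a gene with a coding sequence of the same length as that of Rps27. Reads from such near copies may be divided between rows, so their levels are uncertain.

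The WT group was C57BL/6 wild type, and the Tipe0-/- group was labelled TNFAIP8-/- on the same background. Both were 8 weeks old, and no treatment is given for either. Several mice of a genotype were mixed and sequenced as 1 library each. No test between genotypes was therefore possible, and the 95% intervals given below cover counting error only. The knockout is not described as restricted to any cell type, so differences in the epithelium cannot be assigned to the epithelial gene alone.

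The WT library held 3402 cells and 38127808 UMIs (median 7760 per cell), and the Tipe0-/- library 2006 cells and 23897126 UMIs (median 7307.5). The libraries shared 9 cell barcodes. Mitochondrial genes took 6.59% of UMIs in WT and 8.56% in Tipe0-/-. The targeted gene, Tnfaip8, stood at 9.76 counts per 1000000 UMIs (CPM) in WT and 2.39 CPM in Tipe0-/-, a log2 ratio of -2.02 (-2.46 to -1.63). The position of the deletion relative to the counted 3′ tags was not given in the sources used here. Cells fell into 13 clusters, of which 12 were named from marker genes into 7 classes and 1 remained unnamed. Marker lists of 6 classes reached their highest summed level in their own class. The cycling list was the exception, with 3742 CPM in WT and 3893 CPM in Tipe0-/- cycling-like cells but up to 5334 CPM in lymphocyte-like cells, and with 3891 and 3763 CPM in stem-like cells.

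A ribosome joins a small subunit, which decodes the mRNA, to a large subunit, which forms the peptide bonds. Its proteins are needed in fixed proportions, and their mRNAs are among the most abundant in growing cells. Many of these mRNAs begin with a C followed by a run of pyrimidines (the terminal oligopyrimidine tract), through which mTORC1 and the RNA-binding protein Larp1 control their translation. In the intestine, dividing crypt cells build ribosomes at a high rate, while villus enterocytes devote much of their mRNA to absorption.

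The start-site sequences are shown because they are the best known regulatory feature of this family and were not used to choose it. RefSeq windows on GRCm38.p6 were matched for 63 of the 84 members. At the annotated start, 13 of these 63 windows (20.6%) had a C followed by at least 4 pyrimidines on the gene's strand, against 190 of 8826 windows (2.15%) of the other genes with at least 50 UMIs. A run of at least 8 C or T letters on the gene's strand within 50 bases of the start was present in 51 members (81.0%) and in 2754 other genes (31.2%). Only the gene's strand was searched, and the first pattern can lie within the second. These matches describe letters near an annotated start and do not show which start the cells used. The windows below hold 20 bases before the annotated start and 10 from it onwards, 5′ to 3′, with runs of at least 5 C or T letters in capitals. They belong to the members whose ratio between libraries was highest (Rpl39, Rps28, Rpl35, Rps27, Rps27rt) or among the lowest (Rpl36al, Rps2, Rpl19), with Rps6 added as the substrate of S6 kinase.
Rpl39 (chrX:37085213-37085242, minus strand): CCCCCCCTaagctccgCCTCTagcgacttc
Rps28 (chr17:33824553-33824582, minus strand): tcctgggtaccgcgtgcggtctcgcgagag
Rpl35 (chr2:39005122-39005151, minus strand): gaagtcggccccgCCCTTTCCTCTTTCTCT
Rps27 (chr3:90213639-90213668, minus strand): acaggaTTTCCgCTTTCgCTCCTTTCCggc
Rps27rt (chr9:114982730-114982759, minus strand): ggttaagaacttaTCCCTTgCTTTCCggcg
Rpl36al (chr12:69184058-69184087, minus strand): gttcgcaTTCCCgtcgctcaggttcagttc
Rps2 (chr17:24720043-24720072, plus strand): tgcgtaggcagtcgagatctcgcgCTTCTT
Rpl19 (chr11:98026904-98026933, plus strand): gggcttgggCTCTCCCCTTCgcagataatg
Rps6 (chr4:86857358-86857387, minus strand): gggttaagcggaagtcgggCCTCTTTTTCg
Rpl35, Rps27, Rps27rt and Rps6 had the C with its tract at the annotated start, with 10, 6, 5 and 8 pyrimidines after the C. The other windows did not, and they include members from both ends of the range of ratios.

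Ribosomal protein mRNAs were a large part of what was counted in both libraries. Members took 18.2% of all UMIs in WT (18.2 to 18.2%) and 20.5% in Tipe0-/- (20.4 to 20.5%). Small-subunit members accounted for 8.01% of UMIs in WT and 8.94% in Tipe0-/-, and large-subunit members for 10.2% and 11.5%. The median member stood at 1995 CPM in WT and 2122 CPM in Tipe0-/-. At least 500 CPM was reached by 79 members in each library. Each molecule is tagged once near its 3′ end in this assay, so levels were not divided by transcript length.

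Rpl41, which encodes the smallest ribosomal protein at 25 residues, was the most abundant member. It stood at 9024 CPM in WT and 10955 CPM in Tipe0-/-. Rps29 followed with 4553 CPM in WT and 6571 CPM in Tipe0-/-. Rpl32 had 4875 CPM in WT and 5258 CPM in Tipe0-/-. Rpl37a and Rps19 completed the highest 5 by the mean of both libraries. Rpl37a had 4056 and 5421 CPM, and Rps19 had 4139 and 4518 CPM. At the other end, Rpl7l1 had 38.0 CPM in WT and 39.3 CPM in Tipe0-/-, with overlapping intervals. Rps19bp1 had 46.4 CPM in WT and 48.1 CPM in Tipe0-/-, also with overlapping intervals.

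The share of UMIs in members differed several-fold between classes of cells, and by more than it did between the libraries. In stem-like cells, led by Lgr5, members took 31.3% of UMIs in 305 WT cells and 30.9% in 254 Tipe0-/- cells. In enterocyte-like cells they took 9.44% in 956 WT cells and 10.5% in 469 Tipe0-/- cells. Expressed as stem-like over enterocyte-like, the WT library had a log2 ratio of 1.73 and the Tipe0-/- library one of 1.56. Quartiles of the per-cell share were separate between these classes in each library. They ran from 28.1 to 33.3% in WT stem-like cells and from 3.06 to 12.6% in WT enterocyte-like cells.

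The remaining classes lay between or near these limits. Lymphocyte-like cells had 28.4% in 91 WT cells and 27.3% in 16 Tipe0-/- cells. Cycling-like cells had 24.7% in WT and 23.4% in Tipe0-/-. Goblet-like cells had 22.4% in WT and 23.3% in Tipe0-/-. Tuft-like cells had 22.4% in 156 WT cells and 24.8% in 50 Tipe0-/- cells. The unnamed cluster, led by Akr1c19 and Lrg1, had 20.4% and 20.1%. Paneth-like cells had 9.12% in 282 WT cells and 13.3% in 139 Tipe0-/- cells. Stem-like cells were highest and lymphocyte-like cells next in each library, while the order of the middle classes differed between them. In each library the per-cell quartiles overlapped between stem-like and lymphocyte-like cells, and among cycling-like, tuft-like and goblet-like cells. They also overlapped between enterocyte-like and Paneth-like cells. Whether these neighbours differ was not tested. Enteroendocrine-like cells formed a cluster only under other choices of variable genes or cell totals. With 2000 variable genes selected by the vst method, members took 27.55% of UMIs in 43 WT cells of this kind and 27.9% in 29 Tipe0-/- cells.

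**Figure D1:**
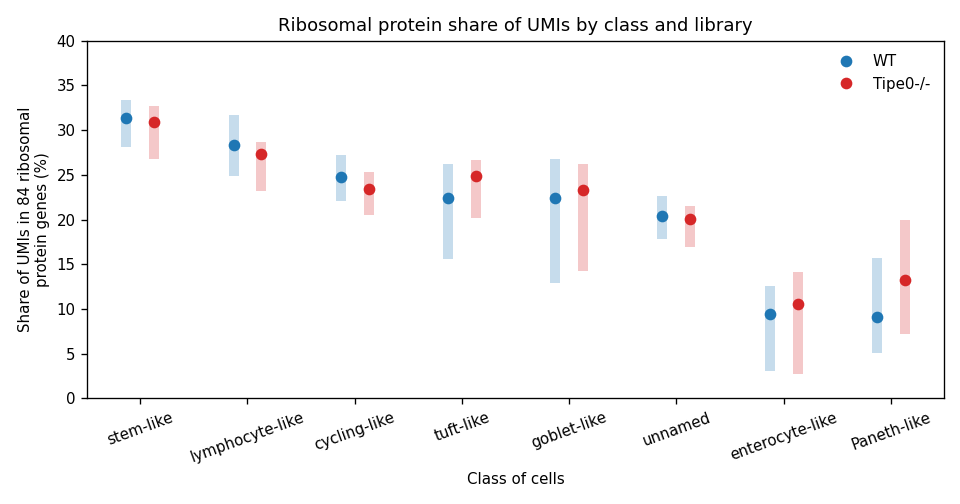
Share of UMIs in the 84 ribosomal protein genes (y axis, percent) by class of cells (x axis) for WT (blue) and Tipe0-/- (red). Points are the share of summed UMIs and bars span the quartiles of the per-cell share. Stem-like cells sit at 31.3 and 30.9%, enterocyte-like cells at 9.44 and 10.5%, and Paneth-like cells at 9.12% in WT and 13.3% in Tipe0-/-.

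The clusters within a class also differed. Among enterocyte-like clusters, members took 15.7% (WT) and 16.7% (Tipe0-/-) of UMIs in the cluster led by Slc40a1, in which 6 of 15 enterocyte markers were raised against 13 of 15 in the Apoa4-led cluster. The cluster led by Arg2 and Fabp6, the ileal bile acid binding protein, had 9.08% and 10.4%. The cluster led by Apoa4 and Apoa1, which carry absorbed fat, had 4.05% and 4.49%. Its per-cell median went the other way, with 2.94% in WT and 2.55% in Tipe0-/-. The order of these clusters was the same in both libraries. Against the Apoa4-led cluster alone, stem-like cells had a log2 ratio of 2.95 in WT and 2.78 in Tipe0-/-. Among goblet-like clusters, the cluster led by Mt3, Creb3l1 and Spdef had 26.4% in WT and 25.9% in Tipe0-/-. The goblet-like cluster led by Sval1 and Zg16 had 12.7% and 12.1%, and the other cluster, led by Zg16 and Ido1, had 12.3% and 13.0%.

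In 4 of the 7 named classes the member share was higher in Tipe0-/- than in WT, and in 3 it was lower. The difference was 4.16 percentage points in Paneth-like cells, 2.44 in tuft-like, 1.07 in enterocyte-like and 0.917 in goblet-like cells. It was -1.33 points in cycling-like, -1.01 in lymphocyte-like and -0.429 in stem-like cells. The per-cell quartiles of the libraries overlapped in every class. In goblet-like cells the per-cell median was 21.5% in WT and 21.3% in Tipe0-/-, the other way from the summed share. By cluster, the goblet-like difference of the summed share was -0.51 points in the Mt3-led, -0.68 in the Sval1-led and 0.70 in the Zg16-led cluster. Per-cell medians of the Sval1-led and Zg16-led clusters went the other way from these. With mitochondrial genes left out of the total, 2 classes (cycling-like and lymphocyte-like) were lower in Tipe0-/- and the stem-like log2 ratio was 0.0087 instead of -0.020. Mitochondrial genes took 7.75% of UMIs in WT and 9.56% in Tipe0-/- stem-like cells, and 7.90% and 11.9% in cycling-like cells. Their part in these differences was not tested beyond that.

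Markers of other cell types also differed between the libraries within several classes. In Paneth-like cells goblet markers stood at 21240 CPM in WT and 15180 CPM in Tipe0-/-, and lymphocyte markers at 37.45 and 4.55 CPM. Stem markers there stood at 240 and 394 CPM, cycling markers at 753 and 1095 CPM, and Paneth markers at 94970 and 91350 CPM. In enterocyte-like cells stem markers stood at 52.9 and 79.5 CPM, cycling markers at 258 and 390 CPM, and goblet markers at 1813 and 1216 CPM. In tuft-like cells the summed tuft markers stood at 2386 CPM in WT and 1567 CPM in Tipe0-/-, enterocyte markers at 1225 and 476 CPM, lymphocyte markers at 281.5 and 66.5 CPM, and goblet markers at 4350 and 6789 CPM. In lymphocyte-like cells, lymphocyte markers stood at 6983 CPM in WT and 3681 CPM in Tipe0-/-, B cell markers at 1117 and 1641 CPM, goblet markers at 428 and 1618 CPM, and enteroendocrine markers at 1318 and 11.7 CPM. The lymphocyte-like class thus differed in content between the libraries. Its Tipe0-/- part held 16 cells and 85299 UMIs, so low levels there rest on very few counts. The part of these markers in the member shares of all these classes was not tested.

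Paneth-like cells, which secrete defensins and lysozyme, showed the widest difference, and it came with a change in the rest of their mRNA. The 20 most abundant other genes were picked in each library separately, with Defa24 and Defa20 at the top of both. They took 68.5% of UMIs in WT Paneth-like cells and 58.3% in Tipe0-/- cells. Without each library's own 20 genes in the total, members took 29.0% in WT and 31.85% in Tipe0-/-. The median gene of Paneth-like cells had a log2 ratio of 0.48, and the median member 0.52. Members were above 0 in all 84 cases but above the Paneth-like median gene in 48.

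In several classes the member share differed between cells of low and high depth or mitochondrial share. In WT goblet-like cells the median share was 13.4% in the third of cells with the fewest UMIs and 25.4% in the third with the most. In Tipe0-/- goblet-like cells these values were 13.0 and 25.9%. Tuft-like cells, with medians of 12087 UMIs in WT and 17250 in Tipe0-/-, ran from 16.3 to 24.95% and from 18.4 to 26.3%. Paneth-like cells ran the other way, from 13.6 to 5.73% in WT and from 15.4 to 11.6% in Tipe0-/-. In enterocyte-like cells the median share was 9.16% in the third with the lowest mitochondrial share and 4.57% in the third with the highest (WT). In Tipe0-/- enterocyte-like cells the values were 9.81 and 5.23%. Tuft-like cells went from 25.2 to 14.7% in WT and from 26.5 to 20.2% in Tipe0-/-. In Paneth-like cells the order by mitochondrial share was the reverse, from 5.19 to 17.3% in WT and from 7.76 to 19.8% in Tipe0-/-. WT cycling-like cells were nearly level by mitochondrial share, from 24.8 to 24.4%. By depth, WT cycling-like cells went from 25.7 to 24.4%, with 23.65% in between. Tipe0-/- cycling-like cells went from 24.05 to 20.9% by mitochondrial share, with 24.4% in between. The 20.9% belongs to cells with a median of 21.1% mitochondrial UMIs. By depth, Tipe0-/- cycling-like cells went from 23.5 to 24.0%, with 21.9% in between. What part of the class differences these account for was not tested.

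Gene by gene, the stem-like over enterocyte-like difference was shared by nearly the whole family. Past 1.5-fold higher in stem-like cells in both libraries were 83 of 84 members, against 38.6% of the 9916 genes with at least 50 UMIs in these classes. Rps27l was the exception. The median log2 ratio was 1.77 in WT and 1.60 in Tipe0-/- for members, and 0.46 and 0.33 for all genes. The ratio was higher in WT than in Tipe0-/- for 79 of 84 members. That count was not made over all genes, whose median was also higher in WT. Across members, ratios of the libraries had a Pearson r of 0.946 (n = 84 genes, which are not independent replicates), and 0.922 without Rps27l. Both libraries were clustered together, so the class borders are shared.

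Rpl12, a large-subunit stalk-base protein, had the highest mean ratio. It stood at 2382 CPM (2322 to 2443) in WT stem-like cells and 444 CPM (430 to 458) in WT enterocyte-like cells. In Tipe0-/- the levels were 2226 CPM (2168 to 2285) and 506 CPM (484 to 529). Rpl3, which helps form the peptidyl transferase centre, followed with 2559 CPM in stem-like and 501 CPM in enterocyte-like WT cells, and 2150 and 523 CPM in Tipe0-/-. Rps6 had 3341 CPM in stem-like and 714 CPM in enterocyte-like WT cells, and 2999 and 804 CPM in Tipe0-/-. Rpl36a had log2 ratios of 2.16 in WT and 1.88 in Tipe0-/-, and Rpl14 of 2.10 and 1.88. In these genes the class intervals were far apart in each library.

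Rps27l (ENSMUSG00000036781) is a p53-responsive paralog of Rps27. It had 1115 CPM (1074 to 1157) in WT stem-like and 1199 CPM (1176 to 1223) in WT enterocyte-like cells, a log2 ratio of -0.11. In Tipe0-/- it had 1149 CPM (1107 to 1191) and 1080 CPM (1047 to 1112), a ratio of 0.089. The direction thus differed between the libraries, and the intervals of the classes overlapped in Tipe0-/- but not in WT. Its partner Rps27 had ratios of 1.46 in WT and 1.38 in Tipe0-/-. Rpl36al, a paralog of Rpl36a, was next lowest by the mean of both libraries, with 0.90 in WT and 0.84 in Tipe0-/-. Rpl41 had 1.08 in WT and 1.23 in Tipe0-/-. Rpl7l1 had 1.23 and 0.96, and Rps19bp1 had 1.41 and 0.81, on 99 to 200 UMIs per class and library.

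**Figure D2:**
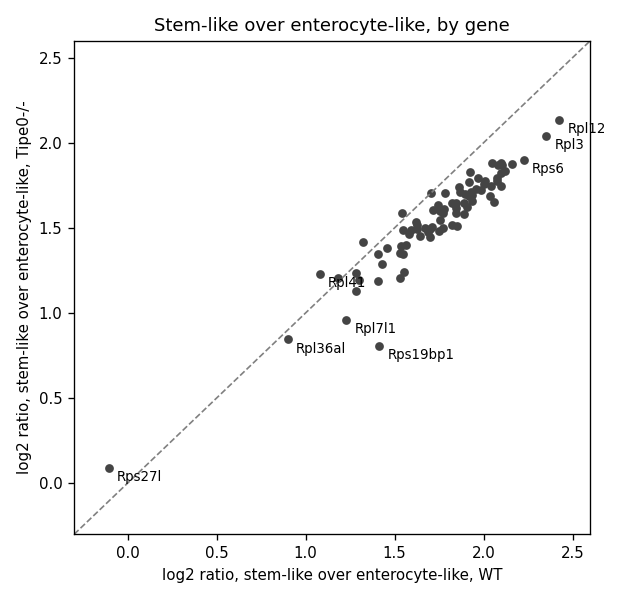
Log2 ratio of CPM, stem-like over enterocyte-like cells, for each of the 84 genes in WT (x axis) and Tipe0-/- (y axis), with the dashed line at equality. Rps27l stands alone near 0 (-0.11 and 0.089) while Rpl12 is highest (2.42 and 2.14), and 79 genes lie below the line. The median of all genes tested was also higher in WT (0.46) than in Tipe0-/- (0.33).

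As a part of all ribosomal protein UMIs, most members kept a near constant place. The log2 range of a member's part over the 7 classes had a median of 0.35 in WT and 0.33 in Tipe0-/-, and exceeded 1 in both libraries for 1 member, Rps27l. Rps27l made up 1.27% of member UMIs in WT enterocyte-like cells and 0.356% in WT stem-like cells. In Tipe0-/- these parts were 1.03% and 0.372%. Lymphocyte-like cells also held little of it, with 0.364% in each library. Rps26 was raised beside Rps27l in enterocyte-like cells, with 1.42% (WT) and 1.70% (Tipe0-/-) against class means of 1.14% and 1.33%. Rpl12 and Rpl3 were low there, with departures from the class mean of -0.53 and -0.41 (log2) in WT and -0.40 and -0.41 in Tipe0-/-.

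Each of the other classes also had members that departed from the class mean. In stem-like cells Rpl12 and Rpl36a were raised, and Rps27l and Rpl36al were low, with Rpl36al at -0.47 (log2) in WT and -0.40 in Tipe0-/-. In cycling-like cells Rpl36al was raised, and Rps27 and Rps27rt were low. In goblet-like cells Rpl36al and Rpl41 were raised, and Rpl39 and Rpl4 were low. Paneth-like cells held more Rps19 (2.67% in WT and 2.73% in Tipe0-/-) and Rps14, and less Rpl39 and Rpl7l1. Rpl7l1 rested there on few counts, 88 UMIs in WT and 75 in Tipe0-/-. In tuft-like cells Rps19bp1 and Rpl30 were raised, with Rpl22l1 and Rpl39 low. Rps19bp1 had 142 UMIs in WT and 74 in Tipe0-/- tuft-like cells, so its departure is uncertain. Lymphocyte-like cells held more Rpl4 and Rpl39, and less Rps14, which made up 1.54% of member UMIs in WT and 1.42% in Tipe0-/- against class means of 2.17% and 1.90%. These members departed in the same direction in both libraries, as the choice of members required.

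Between whole libraries, members lay on both sides of the median gene, with a few well above it. In sums over a library, the makeup of cell classes and the level within cells cannot be told apart. The log2 ratio of the summed share, Tipe0-/- over WT, was 0.17. It was 0.073 when each class had the same weight in both libraries, 0.064 as the mean over cells, and 0.093 without mitochondrial genes and the most abundant other genes of each class. The median member had a log2 ratio of 0.099, beside 0.154 for all 11665 genes, of which 69.3% were above 0. Relative to that median, 30 members were higher and 54 lower. At least 25% higher than it were 6 of 84 members (Rpl39, Rps28, Rpl35, Rps27, Rps27rt and Rps29), a lower share than the 13.9% of all genes. At least 20% lower than it was no member, against 15.9% of all genes. No member was past 1.5-fold of that median in either direction, against 4.23% of all genes higher and 6.90% lower. Members are among the most deeply counted genes, and the part of depth in these counts was not tested. At the same class weights the median member log2 ratio was 0.00064 and 3 members were at least 20% lower than the median gene. The median gene was recomputed for these weights. Its value and the share of all genes past the fold were not recorded, so 0.154 and 15.9% are not their counterparts. A log2 ratio above 0 was found for 68 of 84 members, beside 69.3% of all genes. Counting intervals lay above 0 for 59 members, below 0 for 14, and included 0 for 11. The same interval counts were not made over all genes, most of which have wider intervals. By subunit, the median was 0.12 for the small and 0.094 for the large.

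Rpl39 (ENSMUSG00000079641), a protein of the exit tunnel, had 2491 CPM (2475 to 2507) in WT and 4059 CPM (4033 to 4084) in Tipe0-/-, a log2 ratio of 0.70. Rps28 had 2130 CPM in WT and 3346 CPM in Tipe0-/-, a ratio of 0.65 (0.64 to 0.67). Rpl35, which sits at the exit of that tunnel, had 1536 CPM in WT and 2339 CPM in Tipe0-/-, a ratio of 0.61. Rps27 had 3256 CPM in WT and 4894 CPM in Tipe0-/-, a ratio of 0.59. The near copy Rps27rt had 135 CPM in WT and 222 CPM in Tipe0-/-, a ratio of 0.71 (0.66 to 0.77). Rps29 was the other member at least 25% above the median gene, with a ratio of 0.53. In each of these the counting intervals of the libraries did not overlap.

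At the low end, Rpl36al (ENSMUSG00000049751) had 923 CPM (913 to 932) in WT and 829 CPM (818 to 841) in Tipe0-/-, a log2 ratio of -0.15. Rpl8, a core protein of the large subunit, had 1797 CPM in WT and 1651 CPM in Tipe0-/-, a ratio of -0.12. Rps2 had 3026 CPM in WT and 2802 CPM in Tipe0-/-, a ratio of -0.11. Rpl19 and Rpl29 had ratios of -0.087 and -0.077. Relative to the median of all genes these 5 lay between -0.31 and -0.23. None was at least 20% below it.

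**Figure D3:**
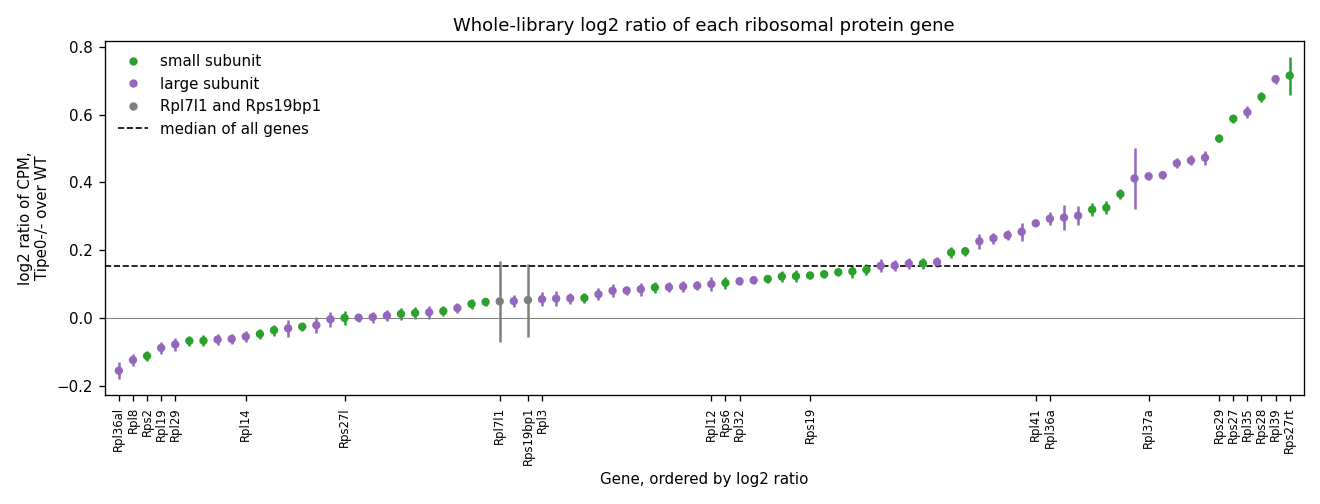
Log2 ratio of CPM in the Tipe0-/- over the WT library (y axis) for each of the 84 genes, ordered by ratio (x axis, with the genes that the text names for level or ratio labelled). Points are ratios, bars are 95% counting intervals, colours mark the subunit, and the dashed line is the median of all 11665 genes (0.154). Values run from -0.15 for Rpl36al to 0.71 for Rps27rt, and 54 genes lie at or below the dashed line.

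The highest members were mostly those that encode the smallest proteins, a feature chosen for display after the values were seen. The 11 members of under 100 residues had a median log2 ratio of 0.46, and 10 of them lay above the median of all genes. Rps27l, at 0.0013, was the exception among these 11. The 30 members from 100 to under 150 residues had a median of 0.12, the 19 from 150 to under 200 residues 0.086, and the 23 of at least 200 residues 0.050. Members of under 100 residues took 3.39% of all UMIs in WT and 4.61% in Tipe0-/-, whereas those of at least 200 residues took 4.11% and 4.22%. Across the 83 members with an annotated coding sequence, log2 protein length and log2 ratio had a Pearson r of -0.55. Pearson r was -0.40 with log2 transcript length and -0.16 with GC content (n = 84 each). It was -0.022 with log2 level.

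Genes outside the family did not show the same relation with protein length. The 272 other genes of under 100 residues had a median log2 ratio of -0.013, and 85 of them lay above the median of all genes. The 9591 other genes of at least 200 residues had a median of 0.17. Across 11164 other genes, the Pearson r of log2 protein length with log2 ratio was 0.17. By transcript length, 273 other genes under 600 nt had a median of 0.15, beside 0.14 for the 27 members under 600 nt. From 600 to under 1000 nt the medians were -0.035 for 681 other genes and 0.10 for 35 members. Other genes stood at 0.067 from 1000 to under 2000 nt, 0.17 from 2000 to under 4000 nt and 0.22 from 4000 nt. The shortest other transcripts thus lay above the next ranges up to 2000 nt and below the longer ones. The abundant short mRNAs of other genes went both ways, with log2 ratios of -0.67 for the defensin Defa24, 0.25 for the goblet cell peptide Tff3 and 0.59 for Gm21002.

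**Figure D4:**
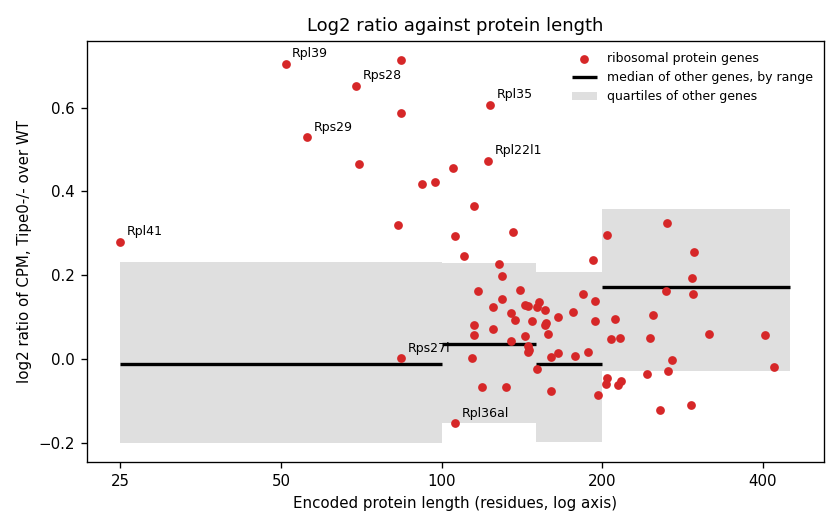
Log2 ratio of CPM, Tipe0-/- over WT (y axis), against the length of the encoded protein (x axis, residues, log axis) for 83 genes (red). Black lines and grey boxes are the median and quartiles of other genes below 100, from 100 to below 150, from 150 to below 200 and at least 200 residues. The 11 shortest members have a median of 0.46, beside -0.013 for other genes of that length.

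Inside the classes, 81 members had at least 50 UMIs in each of the 7 named ones. Above the class's own median gene in all 7 were 14 of them, against 11.3% of the 1410 genes that reached this floor: Rpl22l1, Rpl35, Rpl36, Rpl37, Rpl37a, Rpl38, Rpl39, Rps21, Rps26, Rps27, Rps27rt, Rps28, Rps29 and Rps3a1. At or below it in all 7 were 13 of the 81, a share close to the 16.7% of those genes: Rpl13a, Rpl14, Rpl19, Rpl21, Rpl29, Rpl36al, Rpl4, Rpl8, Rps12, Rps14, Rps2, Rps20 and Rps3. Classes of the same library share its preparation and sequencing, so their accord is not replication. Most members lay far above the floor of 50 UMIs, and the part of depth in these counts was not tested. Rpl39 stood at 4639 CPM in WT and 6594 CPM in Tipe0-/- stem-like cells, and at 1485 and 2408 CPM in enterocyte-like cells. In lymphocyte-like cells it had 4811 and 7714 CPM. Rps28 had 3580 CPM in WT and 5295 CPM in Tipe0-/- stem-like cells, and 2808 and 4431 CPM in lymphocyte-like cells.

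The median member behaved differently from class to class. In stem-like cells it had a log2 ratio of -0.10 beside 0.045 for all genes tested there, and 64 members lay at or below that median. In cycling-like cells the values were -0.15 and 0.068, with 69 members at or below. In goblet-like cells they were -0.0088 and 0.093, and in enterocyte-like cells 0.11 and 0.15. In tuft-like cells the median member was above the median gene, with 0.11 beside 0.0027 and 68 members higher. The tuft-like medians rest on 50 Tipe0-/- cells and the lymphocyte-like ones on 16.

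**Figure D5:**
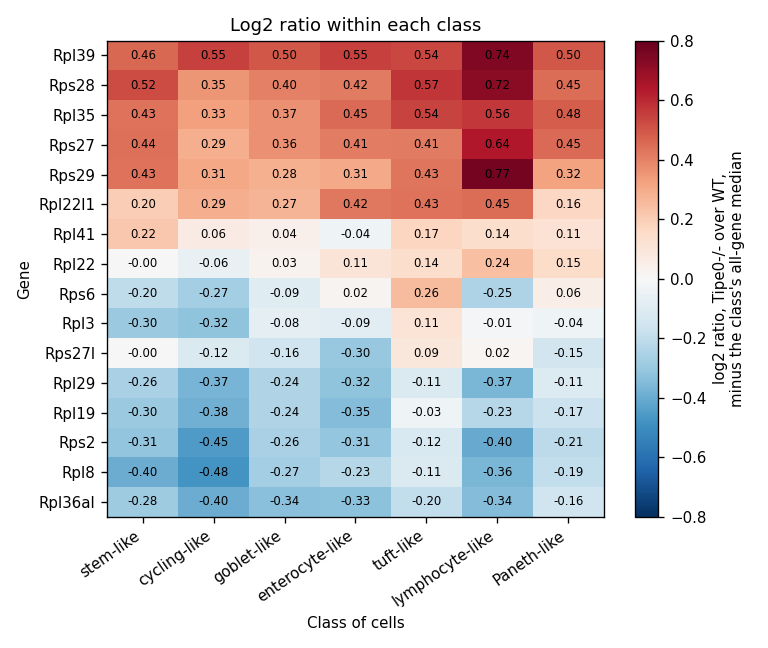
Log2 ratio of CPM, Tipe0-/- over WT, minus the median of all genes of the class, for 16 ribosomal protein genes (rows) in 7 classes (columns), with red above and blue below that median. Rpl39 is above in each class (0.46 in stem-like, 0.74 in lymphocyte-like), and Rpl36al is below in each (-0.28 in stem-like, -0.16 in Paneth-like).

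Paralogs with a similar protein took separate places. Rpl22 had 1037 CPM in WT and 1214 CPM in Tipe0-/-, a log2 ratio of 0.23. Its paralog Rpl22l1, which is known to take its place when Rpl22 is lost, had 1113 CPM in WT and 1545 CPM in Tipe0-/-, a ratio of 0.47. The intervals of these ratios (0.20 to 0.25 and 0.45 to 0.49) did not overlap. In stem-like cells Rpl22l1 had 1830 CPM in WT and 2165 CPM in Tipe0-/-, whereas Rpl22 had 1777 and 1830 CPM with overlapping intervals.

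Rpl36a had 1373 CPM in WT and 1682 CPM in Tipe0-/-, while Rpl36al was lower in Tipe0-/-. The ratios were 0.29 (0.27 to 0.31) for Rpl36a and -0.15 (-0.18 to -0.13) for Rpl36al. Rps27 and Rps27l encode proteins of 84 residues each, and their ratios were 0.59 and 0.0013. Among the acidic stalk proteins, Rplp0 had a ratio of 0.059, Rplp1 of 0.0021 and Rplp2 of 0.082. Rpsa, also known as the laminin receptor, had 0.19. Rps27a, which is made as a fusion with ubiquitin, had 0.12, and Rps6 had 0.10. Rps4x had 0.16, Rpl3 0.056, Rpl10 -0.062 and Rpl7 -0.0028.

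Ribosomal proteins with other symbols lie outside the rule, and their profiles over the classes were compared with the members' sum. Gnb2l1, which encodes the small-subunit scaffold Rack1, had the profile most like the members' sum of all 7874 genes outside the rule with at least 500 UMIs. Its Pearson r was 0.997 over 14 points (7 classes in each library, which share cells, depth and totals with the sum). Hsp90ab1, a chaperone, had 0.991, and Eef1g, a subunit of elongation factor eEF1, had 0.989. Baz1b, a chromatin remodeller, had 0.988, and Gm16286 had 0.987. Among members themselves r had a median of 0.982 and was lowest for Rps27l, at 0.54. Fau, whose product holds Rps30, had 2272 CPM in WT and 2301 CPM in Tipe0-/-. Its stem-like over enterocyte-like log2 ratios were 0.37 in WT and 0.41 in Tipe0-/-, lower than those of all members but Rps27l.

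A list of 18 genes known for terminal pyrimidine tracts held mainly translation factors. Tpt1, Npm1, Naca, Btf3, Hnrnpa1 and Nap1l1 in it are not initiation or elongation factors. Of the 18, 17 were past 1.5-fold higher in stem-like than enterocyte-like cells in both libraries. The medians of the 18 were 1.74 in WT and 1.39 in Tipe0-/-. Between libraries, 1 was at least 25% higher than the median gene and 1 at least 20% lower, against 13.9% and 15.9% of all genes. The highest were Eif4b, an activator of the initiation helicase, at 0.60 and Tpt1 at 0.46. The lowest were Eef1d at -0.17 and Eif3h at -0.077. Another list of 28 held mainly initiation, elongation and termination factor genes, with the regulators Eif4ebp1 and Eif4ebp2 among them. Of these 28, 2 were at least 25% higher and 3 at least 20% lower than that median. Eif3j1 (0.56) and Eif2s3x (0.51) were highest, and Eif2s2 (-0.25) and Eif6 (-0.17) lowest. They were past 1.5-fold higher in stem-like cells in 20 of 28 cases, against 38.6% of all genes tested for this. Eif2s2 went the other way, with stem-like over enterocyte-like log2 ratios of -1.58 in WT and -0.68 in Tipe0-/-.

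Ribosome biogenesis genes showed the steepest class difference of these lists. Past 1.5-fold higher in stem-like cells in both libraries were 38 of 39, against 38.6% of all genes tested for this. Their medians were 2.71 in WT and 2.24 in Tipe0-/-. Between libraries, 9 of 40 were at least 25% higher than the median gene, against 13.9% of all genes. None was at least 20% lower, against 15.9%. The median log2 ratio of the 40 was 0.28. Myc, a transcription factor that drives ribosome synthesis, had 20.1 CPM in WT and 44.0 CPM in Tipe0-/-, a log2 ratio of 1.13 (0.99 to 1.27). Nop58, a component of box C/D snoRNPs, had 56.7 and 83.5 CPM. The lowest were Polr1d at -0.12 and Ebna1bp2 at -0.091. Levels and ratios between libraries, for Myc as for this and the other lists, come from sums over whole libraries. In such sums the makeup of cell classes and the level within cells cannot be told apart. Genes with a steep class difference can therefore differ between libraries without a difference within cells. The part of class makeup in the values of these lists was not tested.

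Mitochondrial ribosomal protein genes lay lower than the cytosolic ones. Of 76, 1 was at least 25% higher than the median gene and 16 at least 20% lower, against 13.9% and 15.9% of all genes. The median log2 ratio of the 76 was -0.047. Mrpl1 (0.53) and Mrps2 (0.43) were highest, and Mrpl55 (-0.37) and Mrps15 (-0.30) lowest. They were past 1.5-fold higher in stem-like cells in 40 of 76 cases, against 38.6% of all genes tested for this. Of 19 genes of mTORC1 and S6 kinases, none was at least 25% higher than the median gene and 2 were at least 20% lower. The same shares of all genes, 13.9% and 15.9%, stand beside these counts. Rps6kb1, an S6 kinase, had 47.7 CPM in WT and 61.3 CPM in Tipe0-/-, and Larp1 had 97.4 and 124 CPM, with log2 ratios of 0.36 and 0.35. Lamtor5 (-0.22) and Lamtor4 (-0.18), of the lysosomal Ragulator complex, were lowest.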

How the data were processed

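Single-cell libraries of ileal epithelium were made with the Chromium System. The deposited values are raw UMI counts per gene and cell, which the authors obtained by running Cell Ranger against mm10. They are used here without normalization between libraries. For its own analysis the paper aggregated both libraries with a normalization by mapped read depth. All deposited cells were used. Counts were summed per library or class and divided by all UMIs. Log2 ratios carry 0.5 added to each sum, with intervals from the exact binomial split of counts (sums: exact Poisson, shares: Clopper-Pearson). Cells were clustered with Seurat 5.3.0 (532 variable genes without members, 14 principal components, resolution 0.8) and named from marker genes. No member was among the variable genes before this exclusion. Genes of the study's genotype comparison were kept out of clustering. Scrublet (Scanpy 1.11.5) called 15 WT and 3 Tipe0-/- cells as doublets, too few to have worked, so none was removed. Transcript and coding lengths come from GENCODE M21 on GRCm38. The ratios and their intervals were tested on simulated data. These were independent Poisson counts drawn around a shared profile, so spread between cells, mice or preparations was not covered.

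Members and lists were chosen with earlier results of these data known. Genes named are the 5 highest and lowest by ratio between libraries and between classes, the 5 most abundant, paralogs and special members, rows nearest the floor, genes of most similar profile, members departing most in each class, and the 2 highest and 2 lowest of each list. Results of 2 genes that this rule names are not reported here.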

Additional observations from a re-analysis of the deposited data

Results flagged for a closer look

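The difference in member share between the libraries had opposite signs in different classes. It was 4.16 percentage points (Tipe0-/- minus WT) in Paneth-like cells, 2.44 in tuft-like cells, 1.07 in enterocyte-like cells and 0.917 in goblet-like cells, but -1.33 in cycling-like cells, -1.01 in lymphocyte-like cells and -0.429 in stem-like cells. Each class has 1 library per genotype, so the difference between classes was not tested. Rows with -ps in the symbol, which the member rule leaves out, also held signal. The 16 rows took 0.0777% of UMIs in the Tipe0-/- library and 0.0575% in the WT library. Rps12-ps3 was the highest, with 8480 UMIs in WT and 6713 in Tipe0-/-, and Rpl23a-ps3 the next, with 4764 and 3861.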

How the results depend on the processing

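The log2 ratio of the summed share, 0.1659 as reported, was positive in all settings tried. It was 0.1965 without mitochondrial genes in the total, 0.09325 without these and the 20 most abundant other genes of each class, 0.1756 without cells over 20% mitochondrial UMIs, 0.1406 without the top 5% of Scrublet scores, 0.06374 as the mean over cells, 0.07332 with the libraries weighted to the same makeup of classes, and 0.1164 without members under 600 nt. The median member log2 ratio, 0.09852 as reported, was 0.1292 and 0.02590 under the other totals, 0.07805 without the top Scrublet scores and 0.000639 at the same makeup of classes. At the same makeup, 3 members were at least 20% lower than the median gene in place of 0. Without members under 600 nt, 2 of 57 were at least 25% higher in place of 6 of 84, beside 13.9% of all genes. With the floor at 500 UMIs this count was 8, and without the top 5% of Scrublet scores it was 7. The share of all genes past these folds was not counted at the same makeup, at this floor or without those cells. The stem-like over enterocyte-like log2 ratio, 1.730 in WT and 1.555 in Tipe0-/- as reported, was 1.706 and 1.515 without mitochondrial genes, 1.321 and 1.197 without the most abundant genes too, 1.714 and 1.526 without cells over 20% mitochondrial UMIs, 1.754 without the top Scrublet scores (WT), 1.897 and 1.756 as the mean over cells, 1.585 and 1.451 at resolution 0.4, 1.783 and 1.613 at resolution 1.2, 2.320 and 2.102 with 2000 variable genes by vst, 2.112 and 1.987 with cell totals without the members, and 2.950 and 2.783 with only the Apoa4-led enterocyte-like cluster. The cause of these shifts was not tested. The number of classes lower in Tipe0-/- was 2 or 3 throughout. It was out of 8 classes with 2000 variable genes by vst and with cell totals without the members, and out of 7 otherwise. Removing the 9 shared barcodes, members under 600 nt or all but the Apoa4-led cluster were alternatives chosen after seeing the data. No paired analysis was possible because each genotype has 1 library. Depth limits Rpl7l1 and Rps19bp1, which have the fewest UMIs of the protein-coding members, and the lymphocyte-like values, which rest on the fewest UMIs of the classes. Differences between mice cannot be seen in these pooled libraries.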
